A study of Mus musculus with 10 samples.

Results

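The natriuretic peptide system of the mouse heart was described here through 10 genes: the peptide genes Nppa, Nppb and Nppc, the processing proteases Corin and Furin, the receptors Npr1, Npr2 and Npr3, the peptide-degrading protease Mme and the cGMP-dependent kinase Prkg1. The genes were chosen by their role in the pathway and found by symbol among the 24160 gene rows of the data, where all 10 had a row and 9 were abundant enough to be tested. Posterior wall tissue of the left ventricle gave 6 libraries labelled MC4R-/- and 4 labelled WT, whose poly(A) RNA was sequenced. MC4R-/- mice lack the melanocortin 4 receptor, a G protein-coupled receptor of the brain that limits food intake, and the series title links its loss to dilated cardiomyopathy. Both groups were C57BL6/J mice aged 30 weeks, bred from heterozygous parents and kept at 24 °C. How the knockout allele was made, the sex of the mice and whether each library came from a separate animal are not given in the sources used here, so p-values measure only the spread between these libraries, which may be technical.

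Natriuretic peptides are hormones that the heart makes when its walls are stretched. Atrial natriuretic peptide (ANP, from Nppa) and B-type natriuretic peptide (BNP, from Nppb) are cut from longer precursors, leave the cardiomyocyte and act on guanylyl cyclase receptors that turn GTP into cGMP, which drives salt excretion, vessel relaxation and restraint of cardiac growth. In the healthy adult heart the atria hold most Nppa mRNA, and ventricular Nppa and Nppb rise in many forms of heart failure. Corin is the cardiomyocyte protease that activates the ANP precursor, so the peptide's mRNA and its processing enzyme are separate steps of the same path.

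The peptides share a ring closed by a disulfide bond, and the ring is the part that the receptors bind. The coding sequences of the Nppb and Nppc rings are shown because these peptides are so alike while the levels of their mRNAs lay far apart. They were read from the mouse genome build GRCm38 (which mm10 also names) at transcripts of GENCODE M21, and each lies in exon 2 of 3. Capitals mark the codons of the 2 cysteines that close the ring.
Nppb: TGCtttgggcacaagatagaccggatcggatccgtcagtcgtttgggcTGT
Nppc: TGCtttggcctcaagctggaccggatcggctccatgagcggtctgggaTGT
The Nppb ring is at chr4:147986464-147986514 on the plus strand, and the Nppc ring at chr1:86669667-86669717 on the minus strand. These rings share 40 of 51 bases and 13 of the 17 residues they encode.

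Corin cuts the ANP precursor at a site encoded in Nppa, and the Corin gene encodes the active site that cuts it. These sequences are shown because Corin was the only one of these genes called between the genotypes. In the stretch of Nppa at chr4:148001283-148001324 (plus strand, exon 2, codons 116 to 129 of 152), capitals mark the arginine and serine codons on either side of the cut. In the stretch of Corin (minus strand, codons 1043 to 1062 of 1113, joined from exons 21 and 22 of 22 across an intron within chr5:72301642-72302811), capitals mark the codon of the catalytic serine.
Nppa cut site: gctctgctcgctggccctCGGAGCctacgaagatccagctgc
Corin active site: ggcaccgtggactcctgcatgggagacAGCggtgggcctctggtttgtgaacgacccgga

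Before the genotypes were compared, the libraries were checked. They held 4145033 to 6425785 reads each, and levels are given as normalized counts, that is, read counts scaled for the depth of the library. Mc4r mRNA could not check the labels, since it had 4 reads over the 6 MC4R-/- libraries and 2 over the 4 WT libraries, with at most 2 in any library. All 10 cardiomyocyte markers were abundant, and their summed level was 398134 to 472068 normalized counts in MC4R-/- and 443854 to 483096 in WT. Genes of the atrial myocardium stood out in some libraries: the sum of Myl7, Sln and Myl4 was 1795 in MC4R-/- replicate 5, 351 in replicate 6, 144 in replicate 2 and 158 in WT replicate 1, against 4.51 to 29.6 in the other 6 libraries. Lymphocyte markers summed to 855.7 in WT replicate 2, against 13.9 to 42.3 in the other 9 libraries, and 0 of 12 passed the test in limma or DESeq2 and 1 in edgeR (1 at an unadjusted p below 0.05 in limma).

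Across all 14611 genes tested with limma, 67 (0.459%) passed an adjusted p of 0.05 (Benjamini-Hochberg), of which 42 (0.287%) were higher and 25 (0.171%) lower in MC4R-/-. Of the 9 genes of the natriuretic peptide system, 1 passed, and this was Corin, which was lower. The other 8 did not pass the test. At an unadjusted p below 0.05, 9.6% of all genes were counted, and 2 of the 9, Corin and Mme. The median log2 fold change of the 9 was -0.06, beside -0.01 over all genes tested, with 6 of the 9 lower and 3 higher in mean. Between the peptide, the enzyme and the receptor mRNAs there was no shared direction: Nppa, Nppb, Corin, Npr1, Npr2 and Prkg1 had negative estimates, and Furin, Npr3 and Mme positive ones. RNA was taken from whole tissue, so fewer cells of a type and less RNA per cell cannot be told apart.

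**Figure D1:**
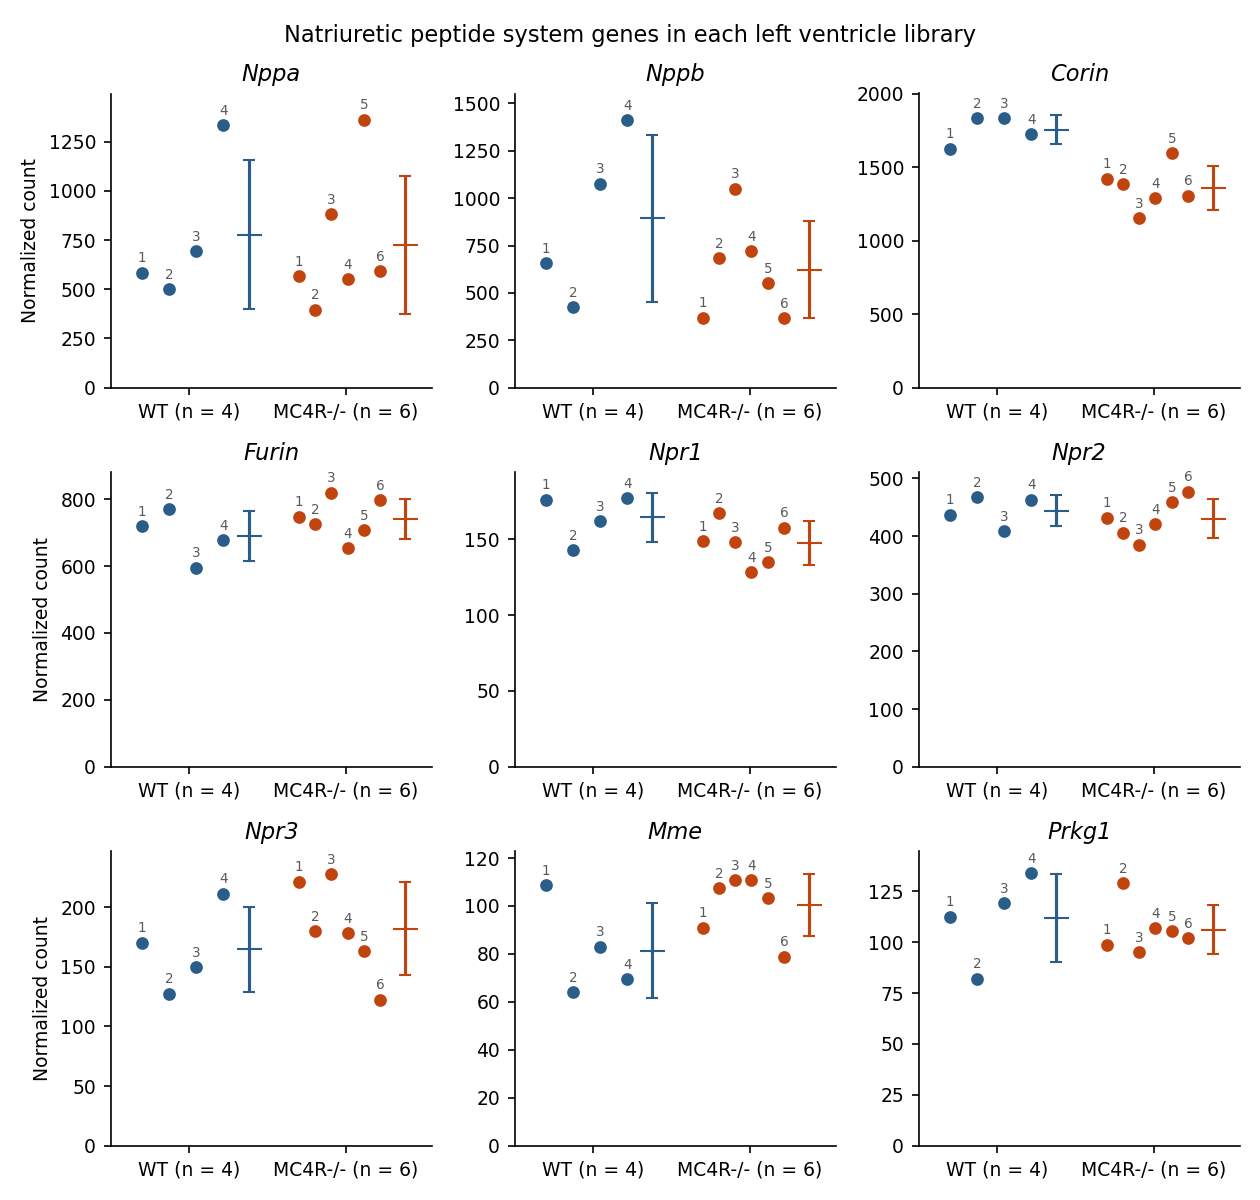
Normalized count (vertical axis, from 0) of the 9 tested genes in each library, with WT in blue and MC4R-/- in orange. Points are libraries marked with their replicate number, and bars are the group mean with its SD (n = 4 and 6). Corin is the only panel of the 9 in which every orange point lies below every blue one, and Nppa and Nppb have the widest spread within groups.

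On a scale that allows genes to be compared, normalized counts per kilobase of exon, the peptide genes led. The mean over the 10 libraries was 936 per kilobase for Nppb (range 469 to 1808) and 862 for Nppa (457 to 1573), ranges that overlap almost fully. Corin followed at 306 (232 to 369), below the lowest library of either peptide gene. Furin came next at 164 (135 to 186) and then the receptor Npr2 at 119 (105 to 130), with ranges that did not overlap each other or that of Corin. Npr1 had 37.9 per kilobase (31.5 to 43.5) and Npr3 24.1 (16.9 to 31.4), so the receptor of the C-type peptide was the most abundant of the 3 receptor mRNAs and their ranges were apart. At the low end Prkg1, at 14.7 (11.1 to 18.1), overlapped with Npr3 above it and with Mme, at 10.8 (7.47 to 12.9), below it.

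Nppa (chr4:148000722-148002074) encodes the ANP precursor. The WT libraries held 584.9, 499.2, 692.2 and 1332 normalized counts in replicates 1 to 4. The MC4R-/- libraries had a lowest value of 395.6, a median of 579.2 and a highest value of 1360. In each genotype 1 library stood above the rest, replicate 4 in WT and replicate 5 in MC4R-/-, and the groups overlapped over nearly their whole range. The means were 724.5 ± 349 (SD, n = 6) in MC4R-/- and 777.1 ± 378 (SD, n = 4) in WT. The log2 fold change, MC4R-/- over WT, was -0.11 (SE 0.40, 95% interval -1.02 to 0.80; limma, adjusted p = 0.963), an interval wide enough to hold a large change either way. Its sign was set by single libraries, since it was 0.038 without MC4R-/- replicate 2 and 0.18 without WT replicate 4.

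Nppb (chr4:147985786-147987205), the neighbour of Nppa on the same strand, encodes the BNP precursor. WT replicates 1 to 4 held 656.1, 426.1, 1077 and 1412 normalized counts. The lowest, median and highest MC4R-/- libraries held 366.6, 617.4 and 1050. The highest value of all 10 was again WT replicate 4, but MC4R-/- replicate 5, the highest for Nppa, held 552.0 of Nppb and lay in the lower part of its group. The mean was 623.5 ± 257 (SD, n = 6) in MC4R-/- and 892.9 ± 439 (SD, n = 4) in WT. This is a log2 fold change of -0.47 (SE 0.42, 95% interval -1.44 to 0.49; limma, adjusted p = 0.788), and the groups overlapped. It ranged from -0.78 without WT replicate 2 to -0.20 without WT replicate 4.

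The peptide mRNAs varied between libraries of 1 genotype far more than the other genes of the system. The coefficient of variation of Nppa was 48.2% in MC4R-/- and 48.7% in WT, and that of Nppb 41.2% and 49.1%. Among the other tested genes it was at most 24.5%, for Mme in WT, and for Corin it was 11% and 5.65%. Whether the neighbouring genes varied together was asked with the log2 values of all 10 libraries. Pearson's r was 0.469 (permutation p = 0.176, adjusted over the 2 relations 0.352) and Spearman's rho 0.321 (permutation p = 0.366, adjusted 0.370). Without the 2 libraries farthest from the median of Nppa, MC4R-/- replicate 5 and WT replicate 4, r was 0.473 (exact permutation p = 0.245). Within the 6 MC4R-/- libraries alone r was 0.149 (exact permutation p = 0.806), and the 4 WT libraries are too few for a value. Without MC4R-/- replicate 5, a choice made after seeing the data, r was 0.685 (exact permutation p = 0.0360, unadjusted), so the size of the relation over all libraries depended on that library.

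MC4R-/- replicate 5 was also the library with the highest atrial sum. Of the 10 atrial genes listed, 9 were tested and 0 passed the test by limma, edgeR or DESeq2 (0 at an unadjusted p below 0.05 in limma). All 9 had a log2 fold change above 0, though that of Gja5 was only 0.005, with a mean count of 42.5 in MC4R-/- and 43.4 in WT. The summed level of all 10 was 773 to 3116 in MC4R-/- and 702 to 1010 in WT, while Bmp10, which marks the right atrium, had at most 0.9 normalized counts in any library. The relation of Nppa to the atrial sum across libraries did not pass the test: r with the log2 sum of Myl7, Sln and Myl4 was 0.180 (permutation p = 0.621, adjusted 0.621) and rho 0.321 (permutation p = 0.370, adjusted 0.370). It turned to -0.367 (exact permutation p = 0.383) without MC4R-/- replicates 5 and 6, the 2 farthest from the median of that sum. Within MC4R-/- alone it was 0.482 (exact permutation p = 0.349). WT replicate 4 held nearly as much Nppa, 1332, with an atrial sum of 6.16, as MC4R-/- replicate 5, 1360, with a sum of 1795. What raised Nppa in either library was not tested.

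**Figure D2:**
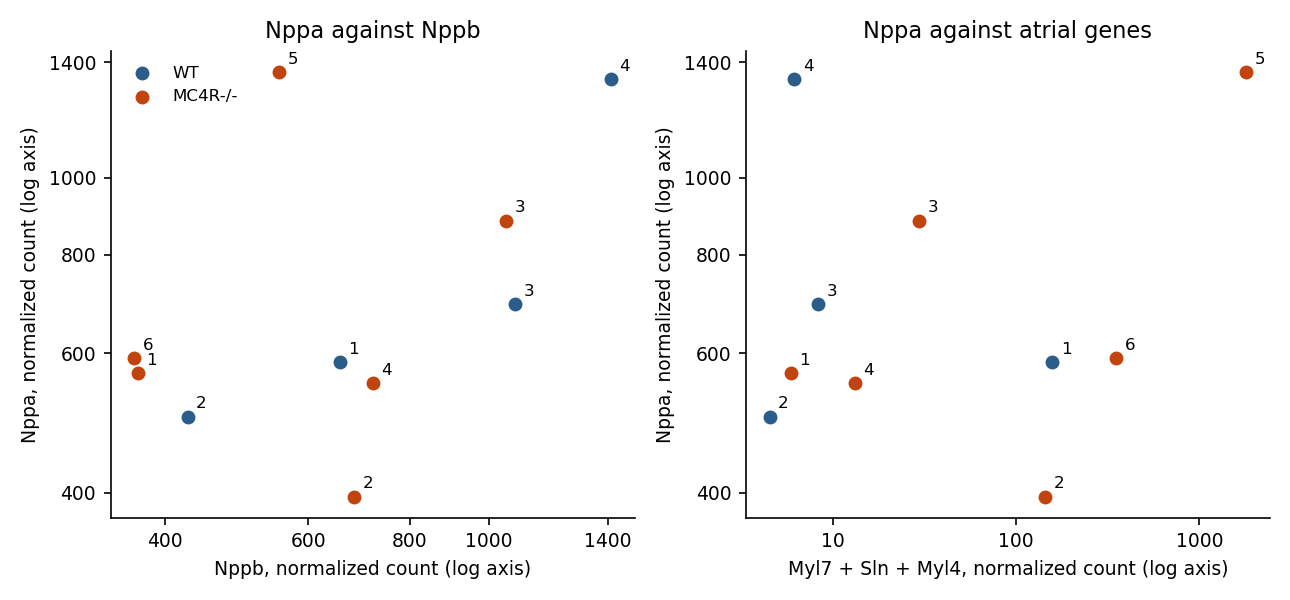
Nppa in each library against Nppb (left) and against the summed atrial genes Myl7, Sln and Myl4 (right), in normalized counts on log axes. Each point is 1 library marked with its replicate number, WT in blue and MC4R-/- in orange. On the right, the highest Nppa values are 1332 in WT replicate 4, at an atrial sum of 6.16, and 1360 in MC4R-/- replicate 5, at 1795.

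The genotype difference in the balance of the peptides was smaller than the SD of the MC4R-/- libraries and close to that of the WT libraries. The log2 ratio of Nppa to Nppb was 0.20 ± 0.79 (SD, n = 6) in MC4R-/-, from -0.79 in replicate 2 to 1.3 in replicate 5. In WT it was -0.16 ± 0.36 (SD, n = 4), from -0.64 in replicate 3 to 0.23 in replicate 2. The difference of 0.36 had p = 0.414 in an exact two-sided permutation test over all 210 ways to divide the libraries 6 to 4. Both groups held libraries with either peptide in excess.

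Nppc (chr1:86666293-86670573) encodes the precursor of C-type natriuretic peptide, which endothelial cells make more than cardiomyocytes do. It was at the edge of detection, with 1 read each in MC4R-/- replicates 2 and 4 and none in the other 8 libraries. The 22972008 reads of the 4 WT libraries together allow a level of up to 0.131 reads in every 1e+06 by a floor of 3 reads, which covers counting error only. No genotype difference was detectable at this depth, and the gene was not tested. Endothelial RNA was present in every library, with the 9 endothelial markers summing to 6313 to 7870 normalized counts in MC4R-/- and 6479 to 7403 in WT, and 0 of the 9 passed the test by limma, edgeR or DESeq2 (0 at an unadjusted p below 0.05 in limma).

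Corin (chr5:72299948-72504540) was lower in MC4R-/-. The WT libraries held 1628, 1834, 1833 and 1724 normalized counts. The MC4R-/- libraries had a lowest value of 1153 in replicate 3, a median of 1347 and a highest value of 1597 in replicate 5. Every MC4R-/- library lay below every WT library, though MC4R-/- replicate 5 and WT replicate 1 came within a few percent of each other. Over all genes tested the groups did not overlap for 2.28%, and for 0.938% with MC4R-/- lower. The mean fell from 1755 ± 99.2 (SD, n = 4) in WT to 1359 ± 149 (SD, n = 6) in MC4R-/-, which is 0.772 times the WT level by the fit (95% interval 0.693 to 0.860). On the log2 scale the difference was -0.37 (SE 0.08, 95% interval -0.53 to -0.22), with an adjusted p of 0.0184 in limma. Between 1268 and 2032 reads per library stood behind these values, so counting error was smaller than the spread between libraries.

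Corin was lower under each alternative that was fitted over all genes, with log2 fold changes from -0.48 to -0.33, while the call lay close to the threshold. Every MC4R-/- library lay below every WT library, so leaving out libraries could not turn the direction. On recovered read counts the adjusted p was 0.0409 by edgeR's quasi-likelihood test, which called 50 genes (0.342%), and 0.00133 by DESeq2, which called 122 (0.835%). The 24 alternatives were fits over all genes and Corin relative to cardiomyocyte markers, given below, which was judged by an unadjusted p. The call was lost in 6 of the 24, all of them fits over all genes. Among these were the limma fits without MC4R-/- replicate 2 (adjusted p = 0.0506), without WT replicate 3 (0.0624), without WT replicate 4 (0.0624) and without the trend and robust steps (0.311). It was also lost without the 4 libraries with over 10 normalized counts of Myl7, where the log2 fold change was -0.48 (limma, adjusted p = 0.0519), a choice made after seeing the data.

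**Figure D3:**
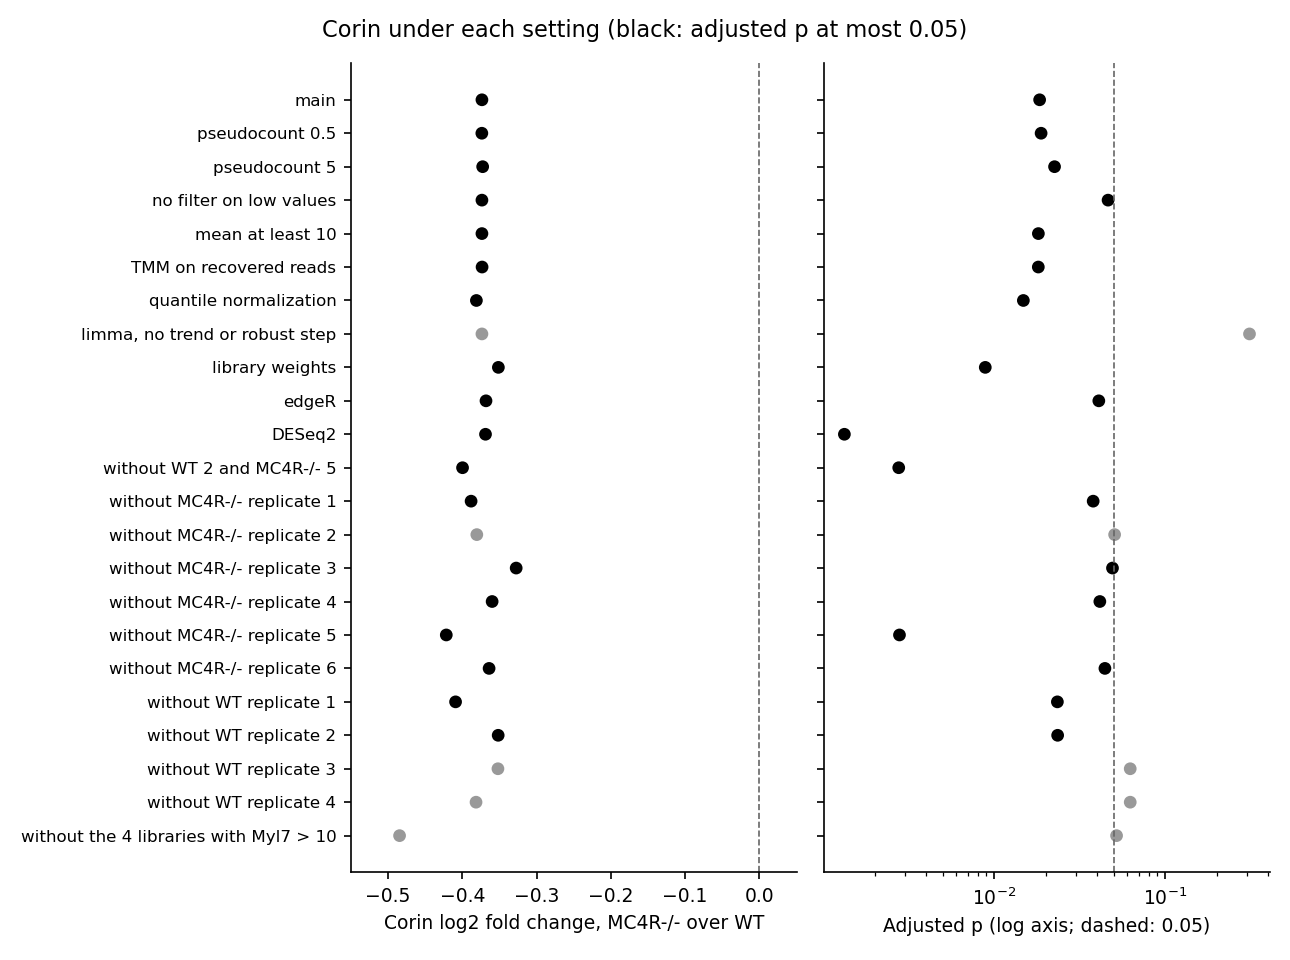
Corin under the main analysis and 22 of 23 alternatives fitted over all genes, all but the replicate block: log2 fold change, MC4R-/- over WT, on the left and the limma, edgeR or DESeq2 adjusted p on a log axis on the right. Black points passed 0.05 and grey ones did not. All fold changes lie between -0.48 and -0.33, and the adjusted p lies on either side of the dashed line at 0.05.

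Corin is made by cardiomyocytes, and 9 of the 10 cardiomyocyte markers also had a lower mean in MC4R-/-, although 0 passed the test by limma, edgeR or DESeq2 (1 at an unadjusted p below 0.05 in limma) and their median log2 fold change was -0.10. Relative to the mean log2 level of these 10 markers in the same library, Corin was -4.62 ± 0.11 (SD, n = 6) in MC4R-/- and -4.34 ± 0.11 (SD, n = 4) in WT. The difference was -0.29 with p = 0.00952 in an exact two-sided permutation test over the 210 arrangements, which can give no p below 0.00476. This comparison was chosen after seeing the data, for a gene already called in these libraries, so its p adds no separate support. The groups then overlapped, since MC4R-/- replicate 5 at -4.45 lay above WT replicate 1 at -4.49. In MC4R-/- replicate 5 the cardiomyocyte sum, 472068, and Corin were both the highest of the MC4R-/- group. Of the single markers, Myh6, Tnnt2 and Tnni3 were also highest there, Myl3 and Mybpc3 were lowest, and the others lay between. The same library had the highest atrial sum, 1795. The 5 genes whose log2 levels ran most nearly parallel to Corin over the 10 libraries, among 11811 genes with a mean of at least 10, were Ppargc1a (Pearson's r 0.947), Tcp11l2 (0.947), Abhd2 (0.924), Pcf11 (0.921) and Aldh6a1 (0.920). These libraries share their genotype groups and scaling, so a gene that also differs between the genotypes comes out as alike. Ppargc1a, a transcriptional coactivator of mitochondrial genes, held 652.5 to 860.0 normalized counts in MC4R-/- and 1072 to 1112 in WT, a difference of -0.54 on the log2 scale (limma, adjusted p = 0.000316).

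The genes most parallel to the peptides over the libraries were other ones. They were picked as the highest r among 11811 genes over only 10 libraries, where chance alone can give high values. Whether they vary with the peptides beyond chance was not tested. For Nppa they were Csrp1 (r 0.899), Clip4 (0.891), Smpd4 (0.886) and Cavin2 (0.880). For Nppb they were Rragd (0.892), Ltv1 (0.887), Zfp72 (0.874), Kdm5a (0.859) and Plekhh2 (0.856), so the lists had no gene in common. The smallest adjusted p for genotype among these genes was 0.642, for Rragd (limma).

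Furin (chr7:80389194-80405441) is the proprotein convertase that cuts the BNP precursor, and it also activates many other secreted proteins in most cell types. WT replicates 1 to 4 held 718.7, 770.0, 595.3 and 677.0 normalized counts. In MC4R-/- the lowest, median and highest libraries held 653.9, 736.3 and 818.9. The groups overlapped, with means of 741.7 ± 60.3 (SD, n = 6) in MC4R-/- and 690.2 ± 73.8 (SD, n = 4) in WT. A fold change of 0.11 on the log2 scale (SE 0.08, 95% interval -0.06 to 0.27; limma, adjusted p = 0.732) had an interval that does not reach the size of the Corin difference in either direction. Leaving out 1 library gave 0.037 without WT replicate 3 and 0.16 without WT replicate 2 as the lowest and highest values. Of 8 other genes of peptide processing and turnover, 7 were tested (all but Ostn, which was too low) and 0 passed the test by limma, edgeR or DESeq2, with 0 at an unadjusted p below 0.05 in limma, a median of 0.03 on the log2 scale and 6 of 7 higher in mean. The smallest unadjusted p belonged to Galnt1, a glycosyltransferase, with 965 ± 58.3 in MC4R-/- (SD, n = 6) and 880 ± 73.1 in WT (SD, n = 4; limma, adjusted p = 0.590). Insulin-degrading enzyme, Ide, which can also degrade ANP, had 724 ± 166 and 633 ± 55.4 (limma, adjusted p = 0.750), and its highest library was MC4R-/- replicate 5 at 1039. Dpp4, a peptidase that can trim BNP, had 24.2 ± 5.62 and 26.4 ± 4.84 (limma, adjusted p = 0.897). DESeq2 gave Dpp4 no adjusted p, so it counted there as not passing.

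Npr1 (chr3:90450591-90465928) encodes the guanylyl cyclase receptor of ANP and BNP. WT replicates 1 to 4 held 176.1, 142.6, 162.0 and 177.0 normalized counts, and in MC4R-/- the lowest, median and highest libraries held 128.1, 148.4 and 167.3. The groups overlapped, with WT replicates 2 and 3 below the highest MC4R-/- library. Npr1 differed by -0.16 on the log2 scale (SE 0.10, 95% interval -0.37 to 0.06; limma, adjusted p = 0.689), from means of 147.4 ± 14.4 (SD, n = 6) and 164.4 ± 16.1 (SD, n = 4) in WT.

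Npr2 (chr4:43629015-43651437) encodes the guanylyl cyclase receptor of C-type natriuretic peptide. It was the steadiest of the receptors, with 436.8, 467.6, 408.4 and 463.1 normalized counts in WT and a range of 385.1 to 476.7 around a median of 425.8 in MC4R-/-. The WT range lay wholly inside the MC4R-/- range. The estimated log2 fold change was -0.05 (SE 0.08, 95% interval -0.21 to 0.11; limma, adjusted p = 0.894), from means of 429.7 ± 33.8 (SD, n = 6) and 444 ± 27.3 (SD, n = 4) in WT. It lay between -0.088 without WT replicate 3 and -0.018 without MC4R-/- replicate 3.

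Npr3 (chr15:11839896-11907837) encodes the clearance receptor, which takes up all 3 peptides and has no cyclase domain. The WT libraries held 170.3, 127.3, 149.5 and 211.3 normalized counts, and the MC4R-/- libraries ranged from 122.2 in replicate 6 to 227.4 in replicate 3, with a median of 178.9. The fit gave a log2 fold change of 0.14 (SE 0.17, 95% interval -0.22 to 0.50; limma, adjusted p = 0.854), and the groups overlapped. On leaving out 1 library it ranged from 0.025 without WT replicate 2 to 0.27 without WT replicate 4. Endocardial cells express Npr3 strongly, and the 8 endocardial markers listed, Npr3 among them, had 0 past the test by limma, edgeR or DESeq2 (1 at an unadjusted p below 0.05 in limma), a median of 0.20 on the log2 scale and summed levels of 738 to 1146 in MC4R-/- and 624 to 920 in WT. The balance of clearance to signalling receptor, the log2 ratio of Npr3 to Npr1, was 0.28 ± 0.37 (SD, n = 6) in MC4R-/- and -0.02 ± 0.19 (SD, n = 4) in WT. The difference of 0.30 had p = 0.171 in an exact two-sided permutation test. Without MC4R-/- replicate 6, the only one of the 6 with a negative ratio (-0.36), it was 0.42 (exact permutation p = 0.0317, unadjusted), so 1 library decided whether it passed 0.05.

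Mme (chr3:63295211-63383713) encodes neprilysin, the membrane protease that degrades natriuretic peptides and the target of the heart failure drug sacubitril. WT replicates 1 to 4 held 108.7, 64.1, 83.1 and 69.6 normalized counts. The lowest, median and highest MC4R-/- libraries held 78.8, 105.4 and 110.9, so 3 of 4 WT libraries lay below 5 of 6 MC4R-/- libraries while WT replicate 1 lay among the highest. The means were 100.3 ± 12.9 (SD, n = 6) in MC4R-/- and 81.4 ± 19.9 (SD, n = 4) in WT. The log2 fold change of 0.32 (SE 0.14, 95% interval 0.02 to 0.61) had an unadjusted p of 0.0349 and did not pass the test after adjustment over all genes (limma, adjusted p = 0.464). Fibroblasts express Mme as well, and of 9 fibroblast markers 1, Lum, passed the test and was higher (limma; 4 at an unadjusted p below 0.05). The median log2 fold change of the 9 was 0.25, and all 9 were higher in mean. Their summed level was 14732 to 17594 in MC4R-/- and 13259 to 15939 in WT, and its part in the Mme values was not tested.

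Prkg1 (chr19:30564487-31765268) encodes the cGMP-dependent protein kinase that carries the signal on in cardiomyocytes and smooth muscle. The WT libraries held 112.6, 82.1, 119.1 and 133.8 normalized counts, and in MC4R-/- the lowest, median and highest held 94.96, 103.7 and 129.1. The WT values reached beyond the MC4R-/- values at both ends. For Prkg1 the log2 fold change was -0.06 (SE 0.13, 95% interval -0.33 to 0.21; limma, adjusted p = 0.927), from means of 106.2 ± 12 (SD, n = 6) and 111.9 ± 21.7 (SD, n = 4) in WT. It was 0.033 without WT replicate 4 and -0.20 without WT replicate 2. Smooth muscle and pericyte markers, cells rich in Prkg1, had 0 of 9 past the test by limma, edgeR or DESeq2. In limma 2 had an unadjusted p below 0.05, Acta2 and Abcc9, each lower in mean. Of the 9, 6 were lower and 3 higher in mean, with a median log2 fold change of -0.05. Their summed levels, in which Rgs5 and Abcc9 weigh most, were 10346 to 11021 in MC4R-/- and 10103 to 12780 in WT.

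**Figure D4:**
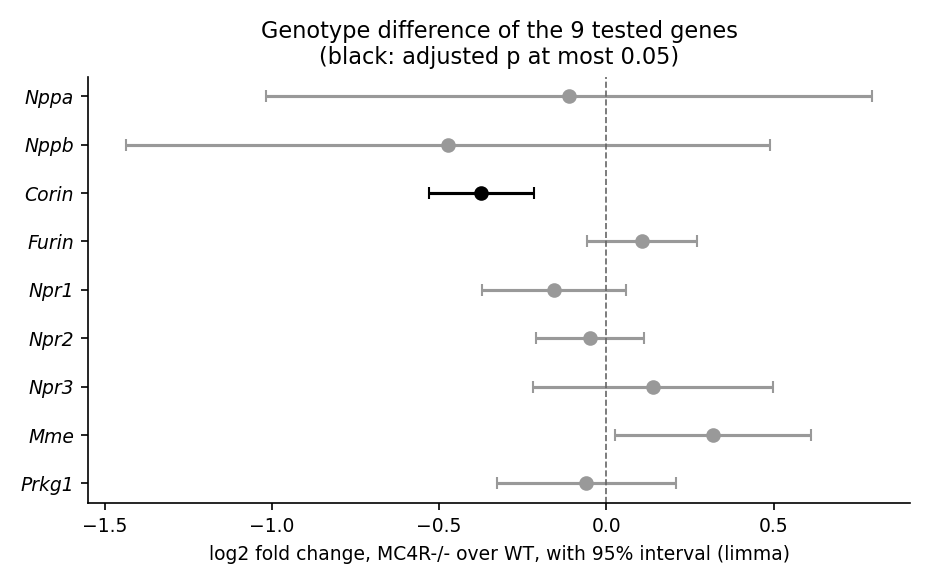
Log2 fold change of the 9 tested genes, MC4R-/- over WT (horizontal axis), with the 95% interval of the limma fit. Black marks an adjusted p of at most 0.05 and grey a larger one. The interval of Corin, -0.53 to -0.22, is narrow and lies below 0, and those of Nppa and Nppb are the widest of the 9.

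Around the kinase, 26 other genes of cGMP signalling were tested, covering the cyclases, nitric oxide synthases, phosphodiesterases and kinase targets. Of these, 1 was lower and none was higher past the test in limma (5 at an unadjusted p below 0.05: Pde1c, Hspb6, Vasp, Nos1 and Pde3b), 14 had negative and 12 positive estimates, and their median on the log2 scale was -0.06. The lower one was Pde1c, a calcium-stimulated phosphodiesterase that breaks down cGMP and cAMP in cardiomyocytes. It held 390.6, 333.1, 473.5 and 508.9 normalized counts in WT and 285.8 to 328.2, with a median of 313.1, in MC4R-/-. The groups did not overlap, though WT replicate 2 lay just above the highest MC4R-/- library. Over all genes tested this held for 2.28%, and for 0.938% with MC4R-/- lower. The means were 312.6 ± 15.4 (SD, n = 6) and 426.5 ± 79.6 (SD, n = 4) in WT, which is -0.43 on the log2 scale (SE 0.10; limma, adjusted p = 0.0366). The call was lost in 13 of 23 alternatives, among them edgeR (adjusted p = 0.0520) and each of 8 fits that left out 1 library (MC4R-/- replicates 1, 2, 3, 4 and 6 and WT replicates 1, 3 and 4), with limma adjusted p up to 0.211.

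The next smallest unadjusted p-values of that list belonged to genes that did not pass the test. Hspb6, a small heat shock protein that cyclic nucleotide kinases phosphorylate, had 6796 ± 367 normalized counts in MC4R-/- (SD, n = 6) and 5878 ± 631 in WT (SD, n = 4; log2 fold change 0.21, limma, adjusted p = 0.195). Vasp, an actin-binding kinase target, had 190 ± 13.8 and 232 ± 33.9 (log2 fold change -0.28, limma, adjusted p = 0.283), and its WT mean was raised by replicate 2, at 282.5 against 210.4 to 217.5 in the other 3. WT replicate 2 is the library with the raised lymphocyte markers, and their part in the Vasp values was not tested.

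Transcription factors and cofactors that regulate Nppa and Nppb showed no called change. Of 22 tested, 0 passed the test by limma, edgeR or DESeq2, 1 had an unadjusted p below 0.05 in limma, and the median of the list was -0.06. That 1 was Tead1, a partner of the Hippo pathway, with 1850 ± 74.5 normalized counts in MC4R-/- (SD, n = 6) and 1657 ± 212 in WT (SD, n = 4; limma, adjusted p = 0.453), where WT replicate 2 at 1340 lay below all others. Gata4, a zinc finger activator of both peptide promoters, had 791 ± 59.4 and 712 ± 76.4 (limma, adjusted p = 0.542). Mef2c, a MADS-box factor, had 468 ± 31.0 and 421 ± 39.3 (limma, adjusted p = 0.562).

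Transcripts that often rise together with Nppa and Nppb in a stressed ventricle had higher means more often than lower ones, 11 of 12 against 1, with a median log2 fold change of 0.35. Without WT replicate 2 that median was 0.16. Among the higher ones Tnni1 had a log2 fold change of only 0.00069, with a mean count of 1.70 in MC4R-/- and 1.53 in WT. In limma 1 of the 12, Fhl1, passed the test and was higher, and 5 had an unadjusted p below 0.05, of which Fhl1, Rcan1, Xirp2 and Postn were higher in mean and Ccn2 lower. Over all genes tested, 0.459% passed the test and 9.6% had an unadjusted p below 0.05. Postn and Ccn2, matricellular proteins, were named after their values were seen, and fibroblasts, whose summed markers are given with Mme, also make them. Their part in this list was not tested. Fhl1, a LIM protein of the sarcomere, held 788.9, 886.4, 839.0 and 818.8 normalized counts in WT and 985.6 to 1309 in MC4R-/-, with no overlap. Its mean rose from 833.3 ± 41.0 (SD, n = 4) to 1111 ± 131 (SD, n = 6), by 0.41 on the log2 scale (SE 0.08; limma, adjusted p = 0.0114). That call was lost without MC4R-/- replicate 2 (limma, adjusted p = 0.0506), WT replicate 1 (0.0523) or WT replicate 4 (0.0618), without the 4 libraries rich in Myl7 (0.185, with the difference still 0.41) and without the trend and robust steps (0.273).

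The other stress transcripts stayed below the threshold. Xirp2, an actin-binding protein of the intercalated disc, had 6636 ± 439 in MC4R-/- (SD, n = 6) and 5446 ± 903 in WT (SD, n = 4; log2 fold change 0.30, limma, adjusted p = 0.203). Its groups nearly touched, with 6088 in the lowest MC4R-/- library and 6068 in the highest WT library. Groups without overlap, as for Xirp2 and Fhl1, were found for 2.28% of all genes tested. Rcan1, a target and inhibitor of calcineurin, had 795 ± 162 and 572 ± 54.7 (log2 fold change 0.46, limma, adjusted p = 0.170), and was the gene that DESeq2 called beside Fhl1 (adjusted p = 0.0172). In the same libraries Nppa and Nppb had log2 fold changes of -0.11 and -0.47, neither past the test.

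**Figure D5:**
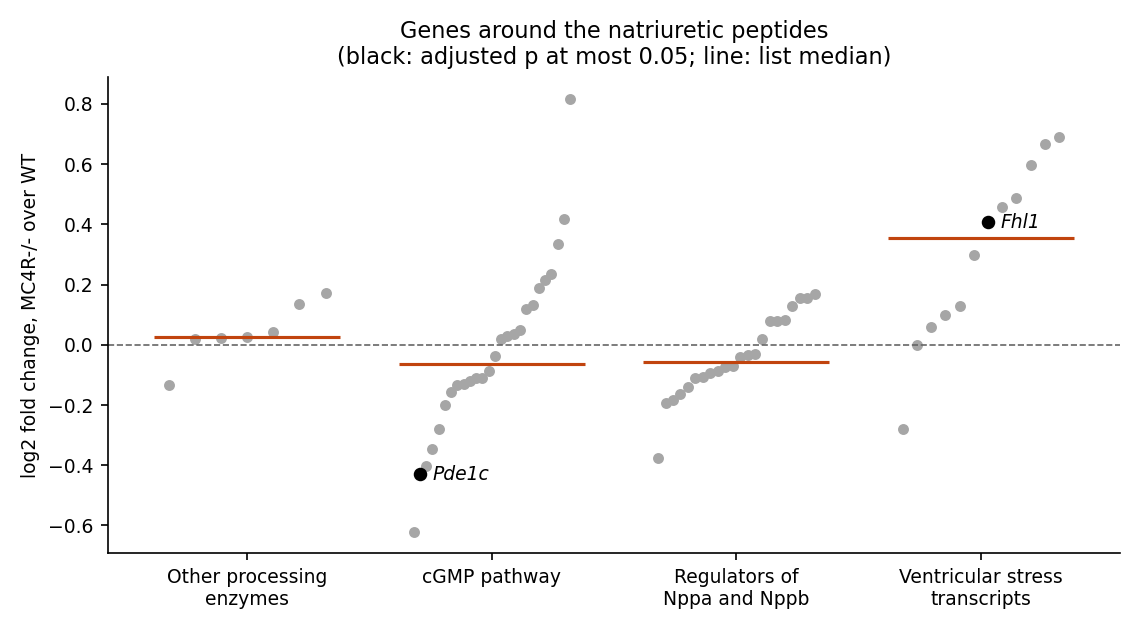
Log2 fold change, MC4R-/- over WT (vertical axis), of each tested gene in 4 lists: other processing enzymes (7 genes), cGMP pathway (26), regulators of Nppa and Nppb (22) and ventricular stress transcripts (12). Each point is 1 gene, black where the adjusted p was at most 0.05, and the orange line is the list median. Pde1c and Fhl1 are the black points, and the stress list has the highest median, 0.35 with all libraries and 0.16 without WT replicate 2.

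Some of the genes overlap others whose reads could be mixed with theirs. Nppa, Corin, Furin, Npr1 and Npr2 each overlap an antisense gene by part of an exon in GENCODE M21 (Gm13054, Gm20647, Gm44851, Gm16048 and Gm12473), none of which had a row of its own in the data. The library kit keeps the strand, but for the counting step no strand setting is given in the sources used here. Npr3 overlaps Gm5144, whose own row had at most 2.94 normalized counts in any library.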

How the data were processed

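Polyadenylated RNA of 10 left ventricle samples was sequenced after preparation with a stranded KAPA kit from 200 ng of total RNA with an integrity number above 7, per the labels' protocols. Per the submitters' processing notes, Cuffnorm 2.2.1.1, Cuffdiff 2.2.1.3 and Cufflinks 2.2.1 were used with TopHat2 2.1.0, Bowtie2, bcl2fastq and the mouse build mm10. No source used here gives the role of each tool, the annotation or the strand setting.

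The signal values that the authors deposited, 1 column per library, are counts of reads scaled by a size factor, as the values themselves show: dividing by what 1 read was worth in a library left 99.99 to 100% of its values above 0 within 0.1 of a whole number. In MC4R-/- replicate 6 a read was worth close to 1, and its reads were recovered in the same way. The plan had named limma for normalized values and edgeR for raw counts, so limma was kept, and edgeR and DESeq2 were run on the recovered reads. The 10 most abundant genes held 11.8 to 12.9% of the reads, and 0 columns were left out.

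Rows were matched to symbols through a RefSeq table of GRCm38.p6: 23649 rows had 1 symbol, 335 several and 176 none. Rows that join a gene with a miRNA (Gucy1a1, Hdac5, Pdgfra, Lck) counted as the gene, and older symbols were followed (Mrvi1, Lrmp, Ccn1, Ccn2). Lengths, overlaps and sequences came from GENCODE M21 and the GRCm38 genome.

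Genotype was tested with limma 3.58.1 in R 4.3.3 (trend and robust steps, no covariates) on log2(normalized count + 1), in the 14611 genes with a mean of at least 1, with two-sided p-values adjusted by Benjamini-Hochberg over all of them and a threshold of 0.05. Fold changes are on that scale, MC4R-/- over WT, which understates the change of low genes. The code was tested on simulated data. Ratios used exact permutation over all 210 arrangements of the libraries, and correlations 100000 permutations, or all of them below 10 libraries. With the replicate block, ratios used sign flips of the same-numbered pairs alone. Alternatives were other pseudocounts, filters and scalings, library weights, edgeR 4.0.16, DESeq2 1.42.0, a replicate block and leaving out libraries. Genes to which DESeq2 gave no adjusted p, such as Dpp4, counted as not passing in it. The named genes were all 10 of the pathway, those past the threshold and the 3 smallest p-values of each of 4 pathway lists, the 5 most parallel to Nppa, Nppb and Corin, and Mc4r. Cell type sums, Lum, Bmp10 and the atrial genes Myl7, Sln and Myl4 come from lists of cell type markers. The genes and lists were chosen with earlier results of these data known. Some items that these rules take are not reported here.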

Additional observations from a re-analysis of the deposited data

Results flagged for a closer look

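In each group the highest and the lowest library were compared with the rest for the named genes and the atrial sum, 51 comparisons in all, and 6 had a library far from the others. Chance alone sets about 1 in 20 groups apart in this way. Among the genes of the natriuretic peptide system only Prkg1 had one, MC4R-/- replicate 2 at 129.1 normalized counts against 106.8 in the next highest library. Hspb6, in the cGMP pathway list, was at 7498 in MC4R-/- replicate 3, against 6802 in the next. WT replicate 2, the library with raised lymphocyte markers, was lowest for Tead1, at 1340 against 1746 in the next lowest, and highest for Vasp, at 282.5 against 217.5. The summed atrial genes Myl7, Sln and Myl4 reached 1795 in MC4R-/- replicate 5, against 351 in the next, and 157.8 in WT replicate 1, against 8.31 in the next.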

How the results depend on the processing

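Corin was lower in MC4R-/- under each of 24 alternatives and passed its test in 18. These 18 include Corin relative to cardiomyocyte markers, which was judged by an unadjusted p. Leaving out libraries could not turn the direction of Corin, since its groups did not overlap. The count of called genes of the natriuretic peptide system was 0 instead of 1 in limma without the trend and robust steps, with the replicate block and without the 4 libraries rich in Myl7, and 0 to 1 on leaving out each library in turn. The replicate numbers of the labels do not pair the libraries: same-numbered samples had deviations correlated at -0.0601 to -0.00349, and 0 of 8 correlated best with their own number. With the number as a replicate block, MC4R-/- replicates 5 and 6, whose numbers no WT library has, add nothing to the genotype difference. Corin then stood at -0.42 on the log2 scale (limma, adjusted p = 0.0515). The log2 ratio of Nppa to Nppb, from the same-numbered pairs alone, turned to -0.038 (exact permutation p = 1, by sign flips of the pairs). This value leaves out MC4R-/- replicates 5 and 6, which had the highest ratios, 1.3 and 0.69. Over all genes 67 were called, against 0 without the trend and robust steps, 118 with library weights, 122 by DESeq2, 168 without WT replicate 2 and MC4R-/- replicate 5, 22 without the 4 Myl7-rich libraries and 26 to 117 on leaving out 1 library. In the cGMP list the 1 call became 0 with no filter on low values, without the trend and robust steps, by edgeR, with the block and without the 4 libraries, 2 without WT replicate 2 and MC4R-/- replicate 5, and 0 to 2 on leaving out 1 library. The stress list's median fell from 0.35 to 0.16 without WT replicate 2 and to 0.18 without that library and MC4R-/- replicate 5. In that list the 1 call became 0 without the trend and robust steps and without the 4 libraries, 2 by DESeq2 and without WT replicate 2 and MC4R-/- replicate 5, and 0 to 2 on leaving out 1 library. The sign of Nppa turned without MC4R-/- replicate 2 (0.038) and without WT replicate 4 (0.18), within a range of -0.32 to 0.18 on leaving out 1 library, that of Prkg1 without WT replicate 4 (-0.20 to 0.033), and that of the correlation of Nppa with the atrial sum without the 2 farthest libraries (-0.367). The Nppa to Nppb correlation reached 0.685 without MC4R-/- replicate 5, and the Npr3 to Npr1 ratio ranged from 0.23 to 0.42 on leaving out 1 library. In each case the cause was not tested. Depth limits Nppc and Mc4r.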
